A study of Mus musculus with 12 samples.

Results

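Glutamate receptor subunits, their auxiliary proteins and glutamate transporters were followed in 2 brain regions, cerebellum and hippocampus, of adult WT and En2-/- mice. The 31 genes were chosen by name. They cover AMPA (Gria), kainate (Grik) and NMDA (Grin) receptor subunits, metabotropic receptors (Grm), the vesicular transporters Slc17a6, Slc17a7 and Slc17a8, the plasma membrane transporter Slc1a1, and the auxiliary proteins Cnih2, Cnih3, Neto1 and Neto2. All probes carrying one of these names in the array annotation were taken, which gave 62 of 34891 named probes and 31 of 21149 genes. A single probe stood for 13 of the 31 genes. One Grik2 probe, A_52_P658133, carried the older name C130030K03Rik.

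RNA was extracted from entire cerebella and hippocampi of adult littermates, both sexes, 3 to 5 months old, born to heterozygous parents. The animals were WT (En2WT in the labels) or homozygous for the En2tm1Alj allele (En2-/-, labelled En2KO), in which the homeobox of Engrailed-2 is deleted in every cell of the body. The strain was a mix of 129Sv, C57BL/6 and outbred stock, crossed at least 5 times to C57BL/6. Each of the 4 groups had 3 Agilent single-dye arrays, 12 in all, and each of 3 slides held 1 array of every group. The labels do not say whether a cerebellum and a hippocampus with the same number came from the same mouse. The 43379 spots per array other than controls were well above background for 62.3% to 73.0%, none was saturated, and arrays of a group correlated at 0.966 to 0.990. With 3 arrays a group, precision is limited throughout. The En2 probe lies outside the deleted part and therefore checks no label. Its log2 signal was 13.80 to 14.81 in the cerebellum and 7.04 to 8.14 in the hippocampus, with no call for genotype in either (adjusted p = 0.893 and 0.707 in limma). The granule cell marker Gabra6 read 14.68 to 14.99 on the cerebellum arrays and 1.97 to 5.88 on the hippocampus arrays.

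Glutamate is loaded into synaptic vesicles by the vesicular transporters, released, and detected by ion channels (AMPA, kainate and NMDA receptors) and by G protein-coupled metabotropic receptors. Each channel is a tetramer, and the choice of subunits sets its kinetics, calcium permeability and place in the synapse. NMDA receptors of young neurons carry mainly the Grin2b product, and mature cerebellar granule cells are known for Grin2c. Slc17a7 encodes VGLUT1, the transporter of most cortical, hippocampal and granule cell synapses, and Slc17a6 encodes VGLUT2, which prevails in thalamus and brainstem neurons.

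All values are log2 signals after quantile normalization over the 12 arrays, so a difference of 1 is a doubling. Differences are given as En2-/- minus WT, or as cerebellum minus hippocampus, each for the same probe, since signals of different probes cannot be compared. Genotype was tested by the rank product, with an uncorrected permutation P under 0.01 in the cerebellum and under 0.005 in the hippocampus. Genotype and region were also tested in limma, with a Benjamini-Hochberg adjusted p under 0.05 over all tested probes. A probe entered a test if, in 1 or both groups compared, all 3 arrays showed it well above background. For 56 member probes this held in at least 1 comparison, and 6 were dim throughout: both Grik3 probes, the Grm6 probe, 2 of 3 Grin3a probes and 1 of 3 Grm2 probes. Of those 6, a Grik3 probe was well above background on 1 WT cerebellum array, and the Grm2 probe on 1 hippocampus array of each genotype (4.78 in WT and 5.60 in En2-/- mice, against 1.85 to 2.01 on the other arrays). The others were above it on none, and nothing is said here of Grik3 and Grm6.

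Several genes were read by probes that did not move together, and what each probe binds is therefore shown. The Grm5 probes fall into a pair near the start of the gene (chr7:94751387-94751446 and chr7:94751530-94751589, mm9) and a pair 529 kb downstream (chr7:95280099-95280158 and chr7:95280993-95281052). The full 60 bases are given for the first pair and the first 30 for the second pair, 5′ to 3′, in lower case with no base marked:
Grm5 A_52_P675611: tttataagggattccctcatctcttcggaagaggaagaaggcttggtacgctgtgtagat
Grm5 A_52_P181394: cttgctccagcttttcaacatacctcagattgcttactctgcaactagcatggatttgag
Grm5 A_51_P465591: aaccaagaaaaccagtgcaagatttctgga
Grm5 A_51_P333441: agaaggaggtattctataaatttaaagttc

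The probes called for genotype in the hippocampus are shown next, with other probes of Grm2, Gria2 and Grin2b and the lead probe of Slc17a6, which is set against Slc17a7. Their first 30 bases are given in the same way. Grm2 was read at chr9:106545437-106545496 and chr9:106553374-106553433. Gria2 was read at chr3:80509817-80509876 and chr3:80492452-80492511. The Slc17a7 probe lies at chr7:52430841-52430900, the Slc17a6 lead probe at chr7:58926067-58926126, and the called Grin2b probe at chr6:136121705-136121764. For Grin2b probe A_51_P265765 the files list chr6:135679813-135679823, which is shorter than the probe. In the annotation the called Grm2 and Gria2 probes are listed under other transcript records than the RefSeq ones of the uncalled probes beside them. Exon, intron and UTR positions were not analysed here.
Grm2 A_51_P494725: ggcatcaatgggctggtgaagtctctggaa
Grm2 A_52_P342888: catggctgagattctccgctttttcaactg
Gria2 A_52_P360995: tgaatataagcatttcaagctttctaagtg
Gria2 A_52_P575176: tggcatgggaatgaatgtcagtgtgactga
Slc17a7 A_51_P137913: ttcaaggctcgcctaaccaattctacattt
Slc17a6 A_52_P8197: taagtgcaaagcataaaacctcctgtgtgt
Grin2b A_52_P367017: aacccttaattgccggagactccttaaatc
Grin2b A_51_P265765: tcagcaagtcgctctaccctgaccgggtca

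Many of these transcripts differed in level between the 2 regions. In WT mice, 13 of 55 tested member probes were higher in the cerebellum and 29 were higher in the hippocampus by limma. Over all 25085 tested probes the shares called were 12.1% in each direction. In En2-/- mice, 11 of 55 were higher in the cerebellum and 27 in the hippocampus, against 12.6% and 11.9% of all probes. With the authors' own log2 values the En2-/- split was 15 and 21. The median difference of the members was -0.94 in WT and -0.72 in En2-/- mice, with medians of 0.03 and 0.01 over all probes. With the authors' values these medians were -0.53 and -0.30 for the members and 0.30 and 0.29 over all probes. Of 54 probes tested in both genotypes, 35 were called in both, and all 35 had the same direction in the 2 genotypes. By gene, 8 of the 29 tested in WT mice were higher in the cerebellum (Gria4, Grik1, Grik2, Grin2c, Grin3b, Grm4, Grm8 and Slc17a6) and 15 in the hippocampus (Cnih2, Cnih3, Gria1, Gria2, Gria3, Grik4, Grik5, Grin2a, Grin2b, Grm2, Grm5, Grm7, Neto1, Slc17a7 and Slc1a1). Slc17a8 was called both ways by different probes, and Grin1, Grin2d, Grin3a, Grm3 and Neto2 were not called. In bulk tissue, fewer cells of a type and less RNA per cell cannot be told apart.

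The vesicular transporters Slc17a7 and Slc17a6 differed between the regions in opposite directions. Slc17a7 (VGLUT1) read 10.38, 9.93 and 8.71 in the WT cerebellum and 13.38, 12.75 and 12.57 in the WT hippocampus. The En2-/- cerebella read 8.43, 10.29 and 9.78 and the En2-/- hippocampi 11.46, 11.64 and 11.63. The regions did not overlap in either genotype, and the signal was 9.35-fold higher in the WT hippocampus (-3.23, SE 0.42, adjusted p = 0.000855 in limma) and 4.22-fold higher in the En2-/- hippocampus (adjusted p = 0.0131). Slc17a6 (VGLUT2) ran the other way. Its lead probe (the brightest of a gene's probes on average) read 12.52, 12.70 and 11.98 in the WT cerebellum and 10.62, 10.86 and 8.33 in the WT hippocampus. Those of En2-/- mice were 12.33, 12.90 and 12.59, and 10.04, 11.18 and 10.98. All 6 cerebellum arrays exceeded all 6 hippocampus arrays, with differences of 2.46 (SE 0.60, adjusted p = 0.0182) in WT and 1.87 (adjusted p = 0.0058) in En2-/- mice. The second Slc17a6 probe, A_51_P174996, gave 2.65 and 2.73, both called in limma. The WT call of the lead probe was lost without WT cerebellum replicate 2 (adjusted p = 0.0547).

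Slc17a8 (VGLUT3), found in scattered neurons that also release other transmitters, gave opposite answers with its probes. Probe A_51_P210350 read 9.69, 9.84 and 8.45 in the WT cerebellum and 7.91, 7.97 and 7.00 in the WT hippocampus, a difference of 1.70 (SE 0.42, adjusted p = 0.0183 in limma). Probe A_52_P163021 read 5.32, 6.60 and 6.75 in the WT cerebellum and 7.30, 8.52 and 7.99 in the WT hippocampus, a difference of -1.71 (adjusted p = 0.0217). For En2-/- mice the first probe gave 9.36, 9.92 and 9.46 in the cerebellum against 7.48, 7.96 and 7.58 in the hippocampus (1.91, adjusted p = 0.00109). The second gave 5.54, 7.16 and 6.47 against 6.88, 7.74 and 6.71 (-0.72, adjusted p = 0.279), with overlapping groups. The WT call of the first probe was lost without WT hippocampus replicate 3 (adjusted p = 0.0579) or without WT cerebellum replicate 1 (0.0549) or 2 (0.065). No single direction can be given for this gene.

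Among the NMDA receptor subunits, Grin2c and Grin3b were higher in the cerebellum and Grin2b was higher in the hippocampus in both genotypes. Grin2c read 14.88, 14.73 and 14.36 in the WT cerebellum and 12.75, 12.69 and 12.38 in the WT hippocampus, a 4.15-fold difference (2.05, SE 0.23, adjusted p = 0.000362 in limma). In En2-/- mice it read 14.05, 14.20 and 14.41 against 12.55, 12.68 and 12.91 (1.51, adjusted p = 0.00133). Every cerebellum array lay above every hippocampus array. Grin3b, which makes a glycine-binding subunit best known from motor neurons, read 10.42, 10.24 and 10.21 in the WT cerebellum and 5.23, 6.02 and 6.01 in the WT hippocampus, a 23.2-fold difference (4.54, SE 0.27, adjusted p = 1.17e-05). Readings from En2-/- mice were 10.48, 9.94 and 9.90 against 6.39, 6.24 and 6.61 (3.70, adjusted p = 4.55e-05).

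The Grin2b lead probe, A_52_P1044964, read 7.79, 7.56 and 6.87 in the WT cerebellum and 10.75, 9.68 and 10.85 in the WT hippocampus (-3.02, SE 0.37, adjusted p = 0.000587 in limma). The En2-/- readings were 7.87, 7.64 and 7.60 against 10.11, 9.98 and 9.24 (-2.07, adjusted p = 0.00137). All 4 Grin2b probes tested in WT mice had this direction, with differences from -2.16 to -4.18. Of these, A_51_P265765 was well above background on 2 of 3 WT cerebellum arrays and entered the WT test only through the hippocampus. The fifth, A_52_P367017, was not well above background on any cerebellum array, and in En2-/- mice it was at least 5.31-fold higher in the hippocampus. The limma test used the readings themselves, not this bound (adjusted p = 0.000245), and the probe entered it only through the hippocampus. This bound takes, for each array, the lowest signal among the probes well above background as the ceiling of the dim group.

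The remaining NMDA subunits did not separate as cleanly. Grin1, the subunit every NMDA receptor requires, read 9.22, 9.09 and 7.48 in the WT cerebellum and 10.30, 9.74 and 9.45 in the WT hippocampus (-1.23, adjusted p = 0.087 in limma). In En2-/- mice it read 8.06, 9.55 and 8.67 against 8.70, 8.98 and 8.77, which overlap (-0.05). Grin2a depended on the probe: A_51_P460570 read 5.42, 5.61 and 5.26 in the WT cerebellum against 8.46, 7.43 and 8.19 in the hippocampus (-2.59, adjusted p = 0.000368), while A_52_P62744 read 9.06, 9.55 and 9.73 against 9.15, 8.52 and 9.56 (0.37, adjusted p = 0.423). The same probes in En2-/- mice gave -2.17 (adjusted p = 0.00225) and -0.55, the first from 5.91, 4.98 and 5.88 against 7.71, 8.09 and 7.48, the second from 9.29, 7.72 and 9.26 against 9.59, 9.69 and 8.64. Grin2d was scattered within groups. It read 10.03, 10.11 and 7.74 in the WT cerebellum, 8.60, 8.09 and 9.57 in the En2-/- cerebellum, 9.34, 7.89 and 9.41 in the WT hippocampus and 9.29, 9.74 and 8.97 in the En2-/- hippocampus, all overlapping. Its probe is 81.7% GC. The measurable Grin3a probe, for the other glycine-binding subunit, read 10.93, 11.21 and 10.61 in the WT cerebellum and 10.29, 10.53 and 11.06 in the WT hippocampus. In En2-/- mice it read 10.91, 11.27 and 11.01 against 10.10, 10.44 and 10.80, with neither difference called (0.28 and 0.62).

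WT cerebellum replicate 3 was the lowest of its group for many member probes. These included Grin1, Grin2c, Grin2d, Grin3b, the Grin2b lead probe, Slc17a7, both Slc17a6 probes, Slc17a8 probe A_51_P210350 and both upstream Grm5 probes. Also lowest there were Grm4, Cnih2, Cnih3 and the Neto1 lead probe, which is called for genotype below. For others, such as the Gria2 and Gria4 lead probes, it was the highest. On that array the deviation from the group mean correlated with probe GC content at r = -0.39, and on WT cerebellum replicate 1 at r = 0.44, across 25481 probes, which are not independent replicates. The part of GC content in these values was not tested for single probes. Centring the arrays within GC classes left 45 region calls in WT and 39 in En2-/- mice.

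Of the AMPA receptor subunits, Gria4, a subunit with fast kinetics found in Bergmann glia and granule cells, was higher in the cerebellum with all 4 probes. Their differences were 1.57 to 3.49 in WT and 1.47 to 3.49 in En2-/- mice, all called in limma. The largest in each genotype was that of A_52_P153588, well above background on only 1 of 3 hippocampus arrays per genotype. That probe entered these tests only through the cerebellum, where it is higher. The other 3 subunits leaned to the hippocampus. The Gria2 product makes AMPA receptors impermeable to calcium, and its lead probe, A_52_P575176, read 13.56, 13.81 and 14.03 in the WT cerebellum and 16.09, 15.89 and 16.00 in the WT hippocampus. All 3 Gria2 probes were called in WT mice, at -2.18, -2.20 and -2.43. The same Gria2 probes gave, in En2-/- mice, -0.22 (adjusted p = 0.644), -0.91 (adjusted p = 0.019) and -1.38 (adjusted p = 0.00225). Gria1 differed by -1.79 (adjusted p = 0.00896) and -0.70 (adjusted p = 0.0505) in WT and by -0.92 and -0.70 in En2-/- mice, where both probes were called. For Gria3 the lead probe differed by -1.64 and -1.35, both called, and another by 0.12 and -0.26, neither called. The remaining Gria3 probe, A_52_P179309, had means of 9.27 in the WT cerebellum and 10.05 in the WT hippocampus, and was called. In En2-/- mice its means were 9.28 and 9.62, not called.

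The genes of the cornichon proteins, which bind AMPA receptors and slow their closing, had a higher signal in the hippocampus. Cnih2 read 13.48, 13.41 and 13.13 in the WT cerebellum and 17.16, 16.84 and 16.33 in the WT hippocampus, a 10.9-fold difference (-3.44, SE 0.26, adjusted p = 4.42e-05 in limma). In En2-/- mice it read 13.19, 13.21 and 13.44 against 16.28, 16.47 and 16.48 (-3.13, adjusted p = 3.5e-05). Cnih3 differed by -2.15 (adjusted p = 0.00314) and -2.32 (adjusted p = 0.0001).

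The kainate receptor auxiliary proteins differed from each other. Neto1, which also associates with NMDA receptors, read 8.11, 8.57 and 7.64 in the WT cerebellum and 12.10, 11.75 and 12.64 in the WT hippocampus with its lead probe, A_51_P145948. The difference was 16.7-fold (-4.06, SE 0.32, adjusted p = 4.95e-05 in limma) in WT and 6.64-fold (-2.73, adjusted p = 0.000131) in En2-/- mice, and the second probe gave -4.58 and -3.53. Neto2 was called by neither probe in either genotype, with differences from -0.25 to 0.42. The high-affinity kainate subunits Grik4 (-1.47 and -1.23) and Grik5 (-2.04 and -1.28) were higher in the hippocampus in both genotypes. The low-affinity subunits Grik1 and Grik2 were each called higher in the WT cerebellum with 1 probe, at 0.86 (adjusted p = 0.0474) and 1.03 (adjusted p = 0.0218). The Grik2 value comes from the probe named C130030K03Rik, and the other 2 Grik2 probes gave 0.10 and -0.40, not called.

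The metabotropic receptors ranged from the member with the largest excess in the cerebellum to members clearly higher in the hippocampus. Grm4, a presynaptic group III receptor known from granule cell axons, read 9.27, 8.77 and 7.80 in the WT cerebellum and 7.37, 8.37 and 8.00 in the En2-/- cerebellum. On the 6 hippocampus arrays it was not well above background, with readings from 3.34 to 4.32. It was at least 17.9-fold higher in the cerebellum in WT and at least 9.34-fold in En2-/- mice. The limma tests used the readings themselves, not these bounds (adjusted p = 0.000106 and 8.15e-05). Grm4 entered them only through the cerebellum, where it is higher. Among the other group III receptors, Grm8 differed by 0.70 (adjusted p = 0.0409) in WT and 0.98 (adjusted p = 0.0802) in En2-/- mice. Grm7 was lower in the WT cerebellum with all 3 probes, and 2 of these were called (-0.80 and -0.82). In En2-/- mice no Grm7 probe was called, and the 2 tested gave 0.92 and -1.22 (adjusted p = 0.598 and 0.115). The group II receptor Grm2 was higher in the hippocampus by -2.46 and -3.10 with its measurable probes in WT, and by -3.85 and -1.75 in En2-/- mice, all called. The -3.10 and -1.75 come from A_52_P342888, well above background on 2 of 3 WT and 1 of 3 En2-/- cerebellum arrays. That probe entered these tests only through the hippocampus, where it is higher. Grm3, which astrocytes also express, differed by -0.96 (adjusted p = 0.0757) and -1.17 (adjusted p = 0.00516). Slc1a1, the neuronal plasma membrane transporter EAAC1, was higher in the hippocampus with both probes in both genotypes (-0.87 to -1.34, all called).

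Pairs of members that replace each other were compared within each array as the log2 difference of their lead probes, set to 0 at the WT hippocampus mean. The Slc17a6 to Slc17a7 balance was 5.10, 5.73 and 6.23 in the WT cerebellum and 0.21, 1.07 and -1.28 in the WT hippocampus, a shift of 5.69. The region shift in En2-/- mice was 3.95. The Grin2c to Grin2b balance shifted by 5.07 in WT and 3.58 in En2-/- mice, Neto2 to Neto1 by 3.82 and 3.15, and Gria4 to Gria1 by 2.27 and 2.18, all towards the first gene in the cerebellum. None of these groups overlapped, and each exact two-sided permutation p was 0.1, the smallest that 3 against 3 arrays can give. Cnih3 to Cnih2 shifted by 1.29 (exact p = 0.2) in WT and 0.81 (exact p = 0.1) in En2-/- mice, and Grin2d to Grin2a by 0.04 and -0.03 (exact p = 1 and 0.9). The last pair rests on Grin2a probe A_52_P62744. The other Grin2a probe, called higher in the hippocampus in both genotypes, was not used, and Grin2d was scattered within groups.

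**Figure D1:**
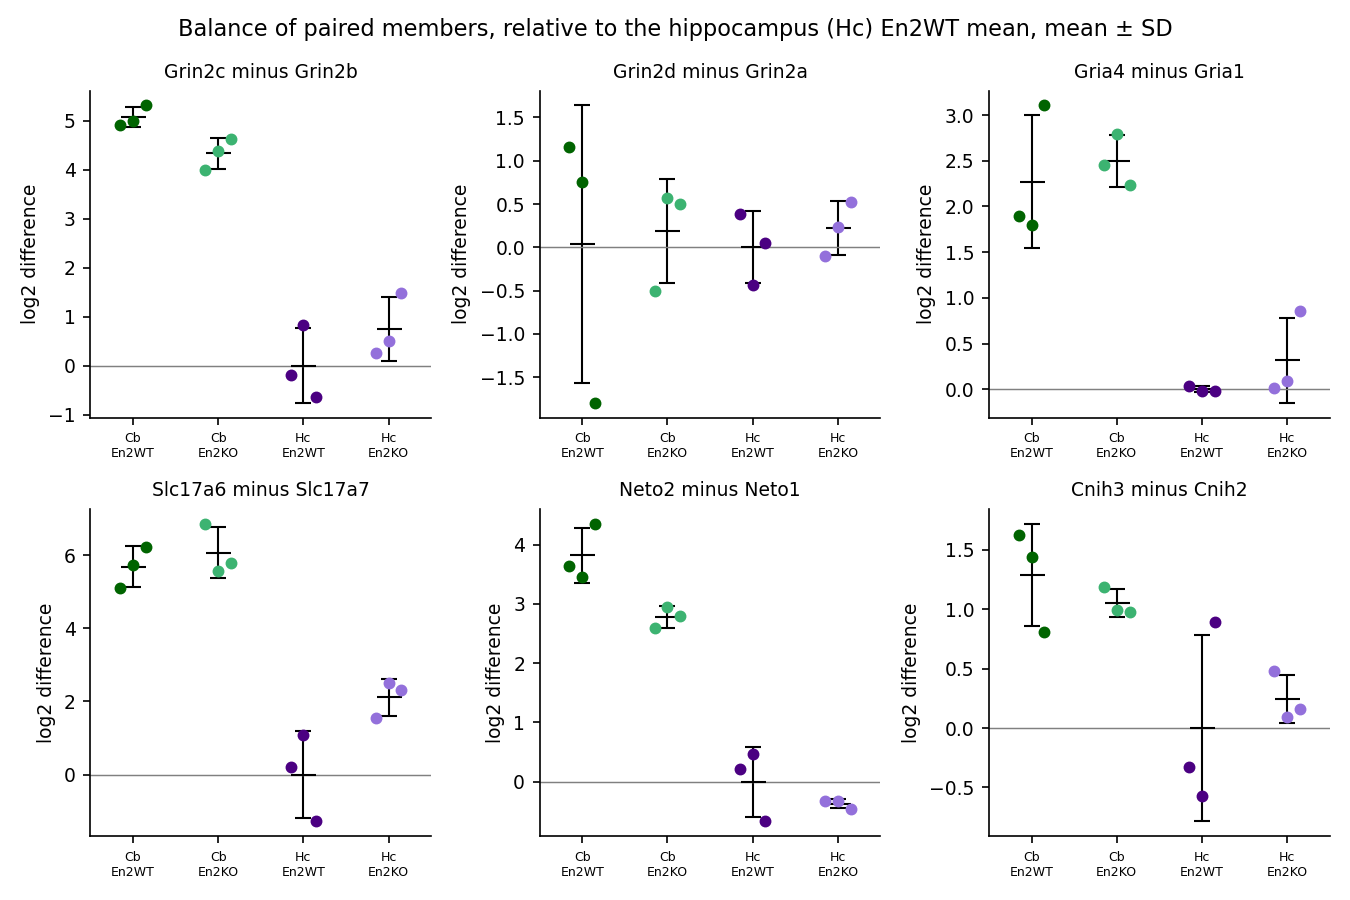
Log2 difference between the lead probes of paired members on each array, relative to the mean of the WT hippocampus, with the mean and SD of 3 arrays per group (Cb, cerebellum; Hc, hippocampus). The Slc17a6 to Slc17a7 balance of the En2KO hippocampus arrays lies at 1.54, 2.50 and 2.31, above the WT hippocampus and below the cerebellum.

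Few of these genes passed a test for genotype. In the cerebellum, the rank product called 1 of 54 member probes, upregulated, where it called 4.41% of all probes. Limma called none of 54 there, where it called 0.579% of all. In the hippocampus, the rank product called 2 upregulated and 2 downregulated of 54, against 4.26% of all probes. Limma called 1 upregulated and 1 downregulated there, against 2.13%. Of the upregulated rank product calls, that of Grin2b probe A_52_P367017 entered the test only through the En2-/- arrays. Of the 54 tested probes, 36 had a difference above 0 in the cerebellum (median 0.11, all probes -0.003) and 36 had one below 0 in the hippocampus (median -0.19, all probes 0.01). With 1 lead probe per gene, 15 were above 0 and 14 below in the cerebellum (median 0.02), and 10 above and 18 below in the hippocampus (median -0.16). WT and En2-/- arrays did not overlap for 4 of 54 member probes in the cerebellum (13.6% of all probes) and for 16 of 54 in the hippocampus (27.8% of all probes).

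In the hippocampus Slc17a7 was downregulated. The WT arrays read 13.38, 12.75 and 12.57 and the En2-/- arrays 11.46, 11.64 and 11.63, without overlap, a 2.50-fold decrease (-1.32, SE 0.23, adjusted p = 0.0362 in limma, rank product permutation P = 0.000893). The decrease was -1.92, -1.11 and -0.94 on the 3 slides. With slide as a block the adjusted p was 0.102, and the limma call was also lost without any 1 of the hippocampus arrays other than WT replicate 3 (adjusted p up to 0.135). The rank product call was lost without WT replicate 1 (permutation P = 0.0073). In the cerebellum the Slc17a7 difference was -0.17 (adjusted p = 0.984), at -1.95, 0.36 and 1.06 on the slides. Slc17a6 was not called in the hippocampus (0.80 with the lead probe, adjusted p = 0.505, and 0.50 with the other probe), its WT arrays reading 10.62, 10.86 and 8.33. The Slc17a6 to Slc17a7 balance in the hippocampus was 1.54, 2.50 and 2.31 in En2-/- mice against 0.21, 1.07 and -1.28 in WT (2.12, exact permutation p = 0.1). Slc17a8 differed by -0.83 (adjusted p = 0.25) and 0.05 with its probes.

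Marker genes of thalamus, of pyramidal and dentate cells, of choroid plexus and of microglia were read on the same arrays. Of 13 thalamus genes, 11 had a difference above 0 in the En2-/- hippocampus (median 0.93), and the summed signal of 12 of them was 12871.5 to 13465.5 on the WT arrays and 32158.6, 19204.7 and 30694.8 on the En2-/- arrays. Of 13 pyramidal and dentate markers, 10 had a difference below 0 (median -0.20), with sums of 401056 to 455621 in WT and 334640 to 392507 in En2-/- mice. None of the 13 pyramidal and dentate genes was called by either test, whereas limma called 3 thalamus genes and the rank product 6, all upregulated. All 9 choroid plexus markers lay below 0 (median -0.55) with sums of 25429 to 63236.6 in WT and 4765.89 to 103370 in En2-/- mice, and 7 of 9 microglia markers lay below 0 (median -0.53, 2 downregulated by the rank product). The part of these markers in the Slc17a7, Slc17a6 and Grm2 values was not tested.

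Grm2, a group II receptor that damps transmitter release, gave opposite values with its 2 measurable probes. A_51_P494725 read 8.05, 7.95 and 7.56 in the WT hippocampus and 9.30, 9.17 and 8.99 in the En2-/- hippocampus, a 2.46-fold increase (1.30, SE 0.20, adjusted p = 0.0232 in limma, rank product permutation P = 0.000545). The increase was 1.25, 1.22 and 1.43 on the slides, and the adjusted p with slide as a block was 0.0628. The limma call was lost without any 1 of the hippocampus arrays other than WT replicate 3 (adjusted p up to 0.0815), and the rank product call was kept without each array in turn. A_52_P342888 read 7.28, 6.94 and 6.36 in WT and 6.45, 5.93 and 5.58 in En2-/- mice (-0.87, adjusted p = 0.165, rank product permutation P = 0.0129), lower on all 3 slides. The mean of all the gene's probes, which includes the dim A_51_P414219, differed by 0.24 (adjusted p = 0.75 in limma). With opposite signs for the 2 measurable probes, the array gives no single direction for Grm2. In the cerebellum A_51_P494725 read 5.32, 5.13 and 5.72 in WT and 5.63, 5.20 and 5.09 in En2-/- mice.

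Gria2 was downregulated in the hippocampus by the rank product with 1 of its 3 probes. That probe, A_52_P360995, read 7.87, 7.59 and 6.65 in WT and 6.37, 6.34 and 5.85 in En2-/- mice (-1.19, SE 0.33, rank product permutation P = 0.00201, adjusted p = 0.106 in limma), lower on all 3 slides. In the cerebellum it read 5.13, 5.70 and 4.75 in WT and 5.52, 6.57 and 5.81 in En2-/- mice. The others pointed the same way in the hippocampus, A_52_P891243 by -0.75 (adjusted p = 0.0976) and A_52_P575176 by -0.50 (adjusted p = 0.231), and neither was called. In the cerebellum all 3 lay above 0, at 0.78, 0.31 and 0.79, not called. A_52_P575176 read 13.56, 13.81 and 14.03 in the WT cerebellum and 14.53, 14.57 and 14.66 in the En2-/- cerebellum, with no overlap (adjusted p = 0.273). The call on A_52_P360995 was lost with background subtraction or normexp (both -0.71), with the authors' log2 values (-0.72), and without WT replicate 1 or 2 or En2-/- replicate 3 (permutation P up to 0.0156).

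Grin2b was upregulated in the hippocampus by the rank product with 1 of its 5 probes, and the others disagreed. A_52_P367017 read 5.79, 4.69 and 5.07 in WT, where 2 of 3 arrays were well above background, and 6.40, 6.05 and 6.08 in En2-/- mice (0.99, SE 0.29, rank product permutation P = 0.00455, adjusted p = 0.118 in limma). The probe entered this test only through the En2-/- arrays, the group where it was higher, and such a filter favours an upregulated call. Without the filter on dim probes the rank product permutation P was 0.0113, and the call was lost. On the cerebellum arrays, where A_52_P367017 was not well above background, it read 2.15 to 3.28. The hippocampus call was lost with background subtraction (0.39), normexp (0.40) or the authors' values (0.38), and without any 1 of the hippocampus arrays other than WT replicate 1 (permutation P up to 0.0236). A_51_P229869, which lies near it, read 11.39, 9.75 and 10.92 in WT and 10.89, 11.76 and 11.32 in En2-/- mice (0.63, adjusted p = 0.417). The 3 probes at the far end of the gene lay below 0. Of these, A_51_P265765 read 7.72, 7.10 and 7.65 in WT and 6.50, 6.61 and 6.31 in En2-/- mice (-1.02, adjusted p = 0.0602, rank product permutation P = 0.00655), and A_52_P248920 read 7.17, 6.18 and 6.98 against 5.84, 6.37 and 6.17 (-0.65, adjusted p = 0.246). The lead probe also differed by -0.65 (adjusted p = 0.339).

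No other NMDA subunit was called for genotype in either tissue. Nearest was Grin1 in the hippocampus, where the WT arrays at 10.30, 9.74 and 9.45 lay above the En2-/- arrays at 8.70, 8.98 and 8.77 (-1.02, SE 0.24, adjusted p = 0.0776 in limma, rank product permutation P = 0.00565). Grin3b differed by 0.66 (adjusted p = 0.196) and Grin2d by 0.45 (adjusted p = 0.561) in the hippocampus. Grin2c differed by -0.44 in the cerebellum (adjusted p = 0.707), and its balance to Grin2b by -0.74 (exact permutation p = 0.1). Among the AMPA subunits, 8 of 11 probes tested in the hippocampus lay below 0 (median -0.20). Grm7 probe A_52_P551129 differed by -1.60 in the hippocampus (adjusted p = 0.436), where En2-/- replicate 1 read 3.95 and the other En2-/- arrays 8.40 and 8.73.

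In the cerebellum the called probe was the Neto1 lead probe, A_51_P145948. It read 8.11, 8.57 and 7.64 in WT and 8.94, 9.42 and 9.37 in En2-/- mice, without overlap, a 2.20-fold increase (1.14, SE 0.28, rank product permutation P = 0.00252, adjusted p = 0.242 in limma). The increase was 0.83, 0.85 and 1.73 on the slides. Without WT cerebellum replicate 3 it was 0.90 and no longer called (permutation P = 0.0153). The second Neto1 probe read 4.17, 4.32 and 4.79 in WT and 4.72, 5.16 and 4.31 in En2-/- mice (0.31, adjusted p = 0.891). In the hippocampus the lead probe read 12.10, 11.75 and 12.64 in WT and 11.78, 12.01 and 12.13 in En2-/- mice, and the Neto1 probes differed by -0.19 and -0.74, not called. The Neto2 to Neto1 balance of the cerebellum shifted by -1.04 (exact permutation p = 0.1). On the same cerebellum arrays, 10 of 10 Purkinje cell markers lay below 0 (median -0.43) and 9 of 9 choroid plexus markers above 0 (median 0.44, 2 upregulated by the rank product). Of the midbrain dopaminergic markers 7 of 8 lay above 0 (median 0.56, 1 upregulated by the rank product), and 11 of 13 thalamus genes lay below 0 (median -0.37). Limma called none of these markers in the cerebellum, and the rank product called no Purkinje cell or thalamus gene there. The part of these markers in the Neto1 value was not tested.

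**Figure D2:**
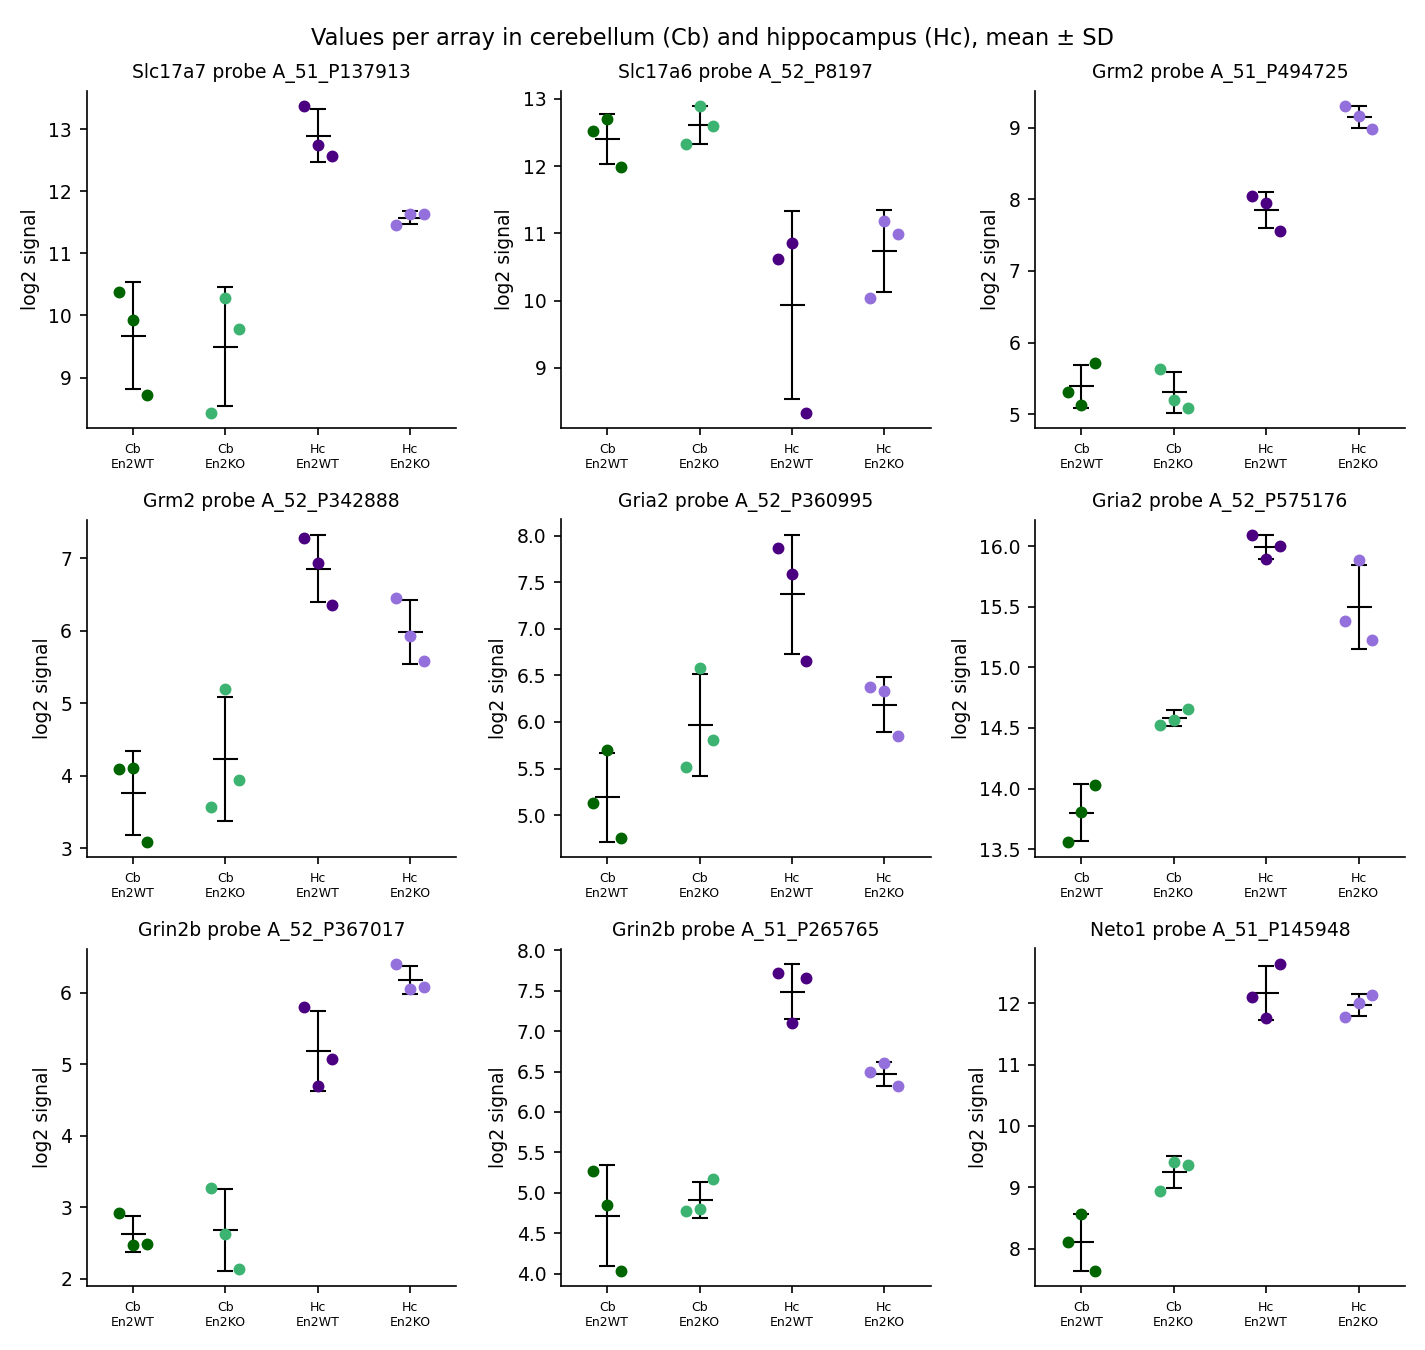
Log2 signal on each array, with the mean and SD of 3 arrays per group (Cb is cerebellum and Hc is hippocampus). Shown are the probes called for genotype, other probes of Grm2, Gria2 and Grin2b, and the Slc17a6 lead probe, which was not called. In the hippocampus the En2KO points lie below WT for Slc17a7, above WT for Grm2 probe A_51_P494725 and below most WT points for Grm2 probe A_52_P342888.

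Grm5 encodes the group I receptor mGluR5, which couples to phospholipase C. It was higher in the hippocampus with each of its 4 probes in both genotypes, all called in limma. The upstream probes read 6.22, 6.21 and 4.84 (A_52_P675611) and 7.58, 6.91 and 5.53 (A_52_P181394) in the WT cerebellum, and 8.37, 7.63 and 7.76 and 9.16, 8.08 and 8.49 in the WT hippocampus. Their region differences were -2.16 (adjusted p = 0.00492) and -1.90 (adjusted p = 0.0253) in WT and -1.78 and -1.75 in En2-/- mice. The downstream probes read 10.37, 11.13 and 11.26 (A_51_P465591) and 6.19, 6.39 and 6.58 (A_51_P333441) in the WT cerebellum, and 13.46, 13.55 and 14.02 and 10.30, 10.21 and 9.68 in the WT hippocampus. The downstream differences were -2.75 (SE 0.29, adjusted p = 0.000266) and -3.68 (adjusted p = 2.15e-05) in WT and -1.49 (adjusted p = 0.00949) and -2.35 (adjusted p = 0.000238) in En2-/- mice.

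No Grm5 probe was called for genotype in either tissue. In the En2-/- cerebellum the downstream probes read 12.14, 11.04 and 11.82 (A_51_P465591) and 6.80, 7.20 and 6.87 (A_51_P333441), which is 0.75 (SE 0.35, adjusted p = 0.673 in limma, rank product permutation P = 0.0188) and 0.57 (SE 0.21, adjusted p = 0.537, rank product permutation P = 0.066) above WT. For A_51_P333441 the groups did not overlap. In the En2-/- hippocampus the same probes read 13.14, 13.30 and 13.02 and 9.10, 9.53 and 9.29, which is -0.52 (SE 0.20, adjusted p = 0.203) and -0.76 (SE 0.22, adjusted p = 0.122) relative to WT, again without overlap for either probe. The upstream probes gave smaller differences than the downstream pair. In the En2-/- cerebellum they read 6.05, 5.96 and 5.78 (A_52_P675611) and 6.95, 6.73 and 6.52 (A_52_P181394), differences of 0.17 (SE 0.38) and 0.06 (SE 0.47). In the En2-/- hippocampus they read 7.49, 8.07 and 7.58 and 8.33, 8.82 and 8.30, differences of -0.21 (SE 0.26) and -0.09 (SE 0.30). Their signs turned when single arrays were left out. With other background corrections A_51_P465591 was called upregulated in the cerebellum by the rank product (permutation P = 0.0032), and with the authors' values too (permutation P = 0.0034).

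**Figure D3:**
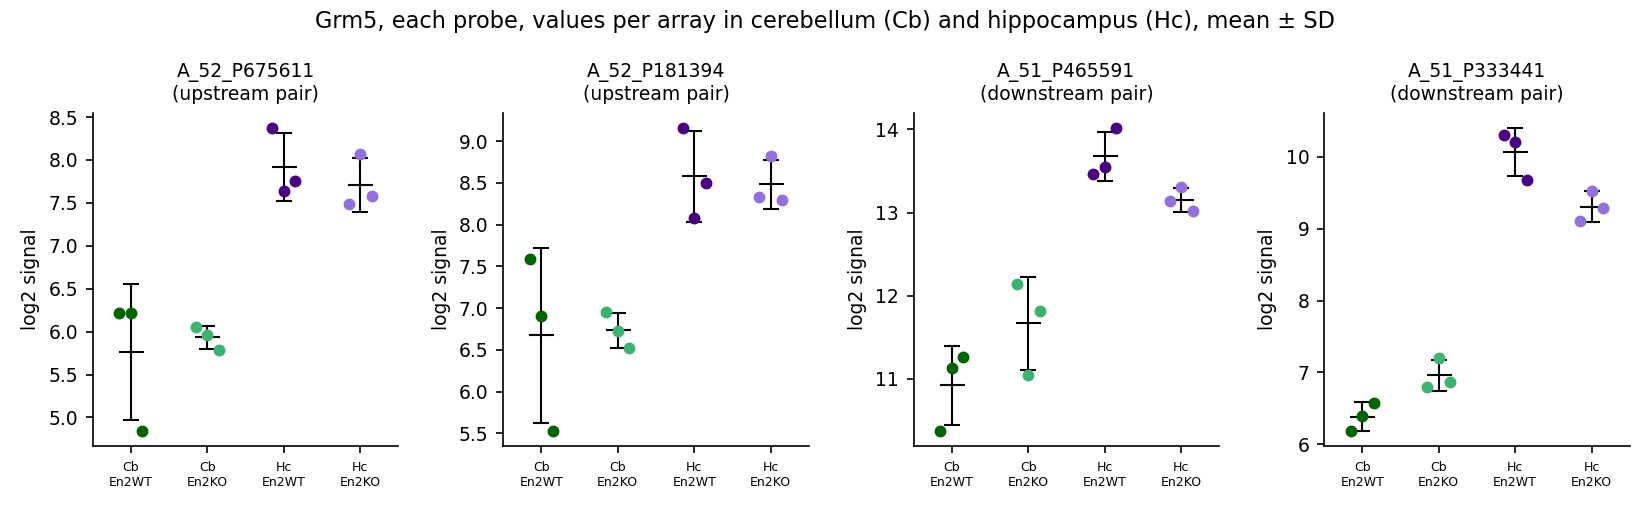
Log2 signal of each Grm5 probe on each array, with the mean and SD of 3 arrays per group (Cb, cerebellum; Hc, hippocampus). In all panels the hippocampus lies above the cerebellum, and for the downstream pair the En2KO hippocampus points lie below the WT ones.

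Whether the genotype effect differed between regions was tested as an interaction over the 12 arrays. None of 56 member probes was called, where limma called 0.102% of 25481 probes. The differences of effects, cerebellum minus hippocampus, included 1.96 for Gria2 probe A_52_P360995 (adjusted p = 0.257), 1.28 for Gria2 probe A_52_P575176 (adjusted p = 0.179), -1.38 for Grm2 probe A_51_P494725 (adjusted p = 0.193), 1.33 for Grm5 probe A_51_P333441 (adjusted p = 0.197) and 1.33 for Neto1 probe A_51_P145948 (adjusted p = 0.301). For Slc17a7 it was 1.15 (adjusted p = 0.52).

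A further list of 68 genes of glutamate uptake, receptor anchoring, AMPA receptor assembly and signalling was read through 1 lead probe each, and 65 had a probe. In WT mice 11 of 62 were higher in the cerebellum and 23 were lower, and in En2-/- mice 15 were higher and 19 lower of 63, against the 11.9% to 12.6% of all probes given above for each direction. The lowest of the WT order were the kinase Camk2a (-4.55) and the scaffold Dlgap2 (-3.28). For genotype in the cerebellum limma called none of 61, against 0.579% of all probes. The rank product called Slc7a11 upregulated and Frrs1l downregulated, against 4.41% of all probes. The Slc7a11 call was lost without any 1 of the cerebellum arrays other than WT replicate 2 (permutation P up to 0.0307). In the hippocampus limma called 3 of 63 (2.13% of all probes), among them Cacng8, an AMPA receptor auxiliary subunit, which was downregulated (-1.65, SE 0.30, adjusted p = 0.0376). This Cacng8 call was lost with slide as a block (adjusted p = 0.0741), without the filter on dim probes (0.0948), and without any 1 of the hippocampus arrays other than WT replicate 3 (up to 0.148). The rank product called 2 upregulated and 6 downregulated of 63 (4.26% of all probes). Frrs1l, which takes part in AMPA receptor assembly, was called in both tissues by the rank product, at -1.48 in the cerebellum (permutation P = 0.0003) and -1.43 in the hippocampus (permutation P = 0.000521), where the call was lost without WT replicate 1 (permutation P = 0.0086). Of the 18 postsynaptic anchors tested in the hippocampus, 14 lay below 0 (median -0.36, all probes 0.01). None of the 18 was called by limma, and 1 was called downregulated by the rank product.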

How the data were processed

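Cerebellum and hippocampus RNA was hybridised to 12 single-dye Agilent arrays. The authors deposited, per array, spot intensity read by Feature Extraction 10.7.3.1, already corrected for background within the array, with probe annotation on mm9, and a table of quantile normalized log2 values that the authors filtered, used here as an alternative. The processed intensity was taken to log2 without control and outlier-flagged spots, quantile normalized over 12 arrays, and spots of a probe were averaged. The newer annotation, that of the cerebellum files, named probes on all arrays, and 3 member probes had other names in the older one. Names were updated through a RefSeq gene table, and 6283 of 41174 probes without a name were not tested.

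The rank product (9 ratios per tissue, 100 permutations) and limma 3.58.1 in R 4.3.3 were tested on simulated data. Figures used matplotlib 3.10.9. The members, gene lists and markers were chosen with earlier results of these data known. Named with values on each array, or their range where dim, are probes called for genotype, the 5 highest and 5 lowest genes by region difference in WT, vesicular transporters, NMDA subunits and every Grm5 probe. Of the further list, genes called by limma for genotype or by the rank product in both tissues, and the 2 highest and 2 lowest by region, are named, except some genes that are not reported here; Slc7a11 was named after its value was seen. The study's methods give 3 mice per genotype, but no source used here ties an array to a mouse. Limma p-values therefore measure the spread between these samples, which may be technical. The rank product P instead sets ranks against values shuffled within arrays, and its 9 ratios share arrays. Replicate number and slide coincide. Alternatives covered background correction, normalization, filters, probe summaries, the block, a pooled model and leaving out arrays.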

Additional observations from a re-analysis of the deposited data

Results flagged for a closer look

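For 2 probes every En2-/- array lay on one side of the WT arrays in the cerebellum and on the other side in the hippocampus. That is 2 of 52 member probes tested in both tissues, against 1.25% of all 23270 such probes. Gria2 probe A_52_P575176 differed by 0.79 among cerebellum arrays and by -0.50 among hippocampus arrays, and Grm5 probe A_51_P333441 by 0.57 and -0.76. The interaction was not called for either (adjusted p = 0.179 and 0.197 in limma), and no explanation was tested. The other Gria2 probes had the same signs, with cerebellum values of 0.78 and 0.31 and hippocampus values of -1.19 and -0.75.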

How the results depend on the processing

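In the cerebellum the rank product called 1 member probe, and 4 with background subtraction, with normexp or with the authors' log2 values, 2 with the lead probe of each gene, 0 with the mean of a gene's probes, 2 with the replicate block, 0 at a false positive share under 0.05, and 1 to 3 with 1 array left out. Without WT cerebellum replicate 3 the 1 upregulated call gave way to 2 downregulated ones. In the hippocampus it called 4, and 2 with the mean of probes, 0 at a false positive share under 0.05, and 3 to 4 with 1 array left out (3 upregulated and 0 downregulated without WT replicate 1). Limma called none in the cerebellum under all alternatives run. In the hippocampus it called 2, and 0 without a filter on dim probes, 1 with the mean of probes, 0 with the replicate block, 1 with a model over all 12 arrays, 4 after centring within GC classes (chosen after seeing the data), and 0 to 3 with 1 array left out. Both calls, Grm2 and Slc17a7, were lost without WT replicate 1, WT replicate 2 or any En2-/- replicate of the hippocampus. Of the further list limma called 3, and 1 without the filter, with the replicate block or with all 12 arrays, and 0 to 2 with 1 array left out.

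The region calls, 42 in WT and 38 in En2-/- mice, became 22 and 21 with lead probes and 22 and 20 with the mean of probes, where fewer features are tested by construction, 32 to 42 and 31 to 37 with 1 array left out, and 39 and 37 with the replicate block. Those of the further list in WT, 34, became 25 to 37. Other scalings moved the median region difference of all probes to 0.34 in WT and 0.29 in En2-/- mice without normalization, to 0.32 and 0.30 with quantiles within a tissue, and to 0.30 and 0.29 with the authors' values.

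For Grm5 probe A_52_P181394 the cerebellum difference became -0.038 with background subtraction or normexp and -0.037 with the authors' values, and ranged from -0.51 to 0.51 with 1 array left out, and in the hippocampus from -0.34 to 0.20. For A_52_P675611 the ranges were -0.29 to 0.40 and -0.39 to 0.015. With the mean of probes Grin2b in the hippocampus was at -0.14 and Slc17a8 between regions in WT at -0.0059, and the causes were not tested beyond the probes' opposite signs. Slc17a7 lost its rank product call without WT hippocampus replicate 1 (permutation P = 0.0073). Of 942 recomputed values of single probes, 848 kept direction and side of the threshold, 68 lost the call, 5 gained it and 21 turned. Replicates with the same number did not deviate together, with correlations from -0.12 to 0.09 in the cerebellum and -0.15 to 0.07 in the hippocampus. The Cnih3 to Cnih2 region shift in En2-/- mice was 1.19 without normalization and 1.22 with the authors' values, and in WT mice its exact p was 0.1 with the authors' values. Dim probes, such as Grm4 in the hippocampus, have only a bound.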
